A study of Mus musculus with 12 samples.

Results

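The 49 genes described here encode actin and the proteins that polymerise, bundle, cap and anchor actin filaments in podosomes and other adhesions. They were chosen by name, as the rows of a table of 46072 genes whose identifiers match 49 listed symbols, and all 49 were found and tested. RNA sequencing covered osteoclasts, macrophages and immature dendritic cells, 4 libraries of each, all cultured from marrow of 6- to 8-week-old C57BL/6J mice. Osteoclasts resorb bone and carry many nuclei. They received RANKL at 50 ng/ml together with 30 ng/ml of M-CSF, the macrophage colony-stimulating factor, after 5 days of expansion in M-CSF at 100 ng/ml. Macrophages had the same expansion and then M-CSF alone at 30 ng/ml, and immature dendritic cells were grown from non-adherent marrow cells with GM-CSF at 20 ng/ml. The cultures lasted 8 to 10 days, and cells with a single nucleus were detached from the osteoclast cultures with Accutase before RNA was taken. Each marrow extraction gave all 3 cell types, so the 4 libraries of a cell type come from 4 separate extractions.

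Podosomes are short-lived adhesions of myeloid cells, each with a core of branched actin filaments surrounded by a ring of integrins and adaptor proteins. The Wiskott-Aldrich protein (Was) activates the Arp2/3 complex to build the core, and talin, vinculin, paxillin and zyxin tie the ring to integrins and to unbranched filaments. Osteoclasts gather their podosomes into a belt that seals off the bone surface being resorbed, whereas macrophages and dendritic cells hold them singly or in clusters and dissolve them when they migrate.

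The values are the authors' means of normalised counts over 4 libraries, and levels of different genes are compared only after division by transcript length in kilobases. A log2 fold change is the authors' own, given with the standard error that their p-value implies (±), and a gene is called where the authors' DESeq2 adjusted p was under 0.05. Summed over all genes the authors' means came to 2.42e+07 (osteoclasts), 2.50e+07 (macrophages) and 2.77e+07 (dendritic cells), and the 49 genes held 2.53%, 2.33% and 2.84% of these sums. The recovered size factors of the 12 libraries ran from 0.975 to 1.043. Of 9 osteoclast markers, all 9 were called higher in osteoclasts than in macrophages and 7 higher than in dendritic cells. Dcstamp and Ocstamp, fusion genes that dendritic cells also express, were not called there, with authors' means of 4231 and 1589 in osteoclasts and 7666 and 2583 in dendritic cells. The summed authors' mean of the 9, carried by Ctsk, Acp5 and Mmp9, was 314300 (osteoclasts), 3096 (macrophages) and 21310 (dendritic cells), and that of 8 dendritic cell markers was 8947, 5691 and 466200. The 6 macrophage markers summed to 68480, 140300 and 59520, and 3 of the 6 were called lower in dendritic cells than in macrophages and none higher; Fcgr1 had 1812 in macrophages and 2944 in dendritic cells. Markers of neutrophils (9 genes) summed to 14760 in the dendritic cells against 92.7 in macrophages and 77.9 in osteoclasts. Of the 9, 8 were called higher in dendritic cells than in macrophages, and 2 had an authors' mean under 10 in dendritic cells. Mpo was not called, with 1.11 per kilobase in dendritic cells and 2.40 in macrophages. Mast cell and basophil markers (7 genes) summed to 801 (dendritic cells), 8.03 (macrophages) and 12.5 (osteoclasts). Stromal markers (11 genes) summed to 379 in osteoclasts, mostly Dcn at 283, against 85.4 in macrophages and 161 in dendritic cells. These are bulk cultures, so a higher share of cells of a type and more RNA per cell cannot be told apart, and the part of the other cell types in the results below was not tested.

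The highest mean fell in dendritic cells for 27 of the 49 genes, in osteoclasts for 15 and in macrophages for 7, and for 23, 19 and 7 with the summed means of the cell types made equal. Before that scaling, the highest mean of all 17822 genes tested in the 3 comparisons fell in dendritic cells for 40.3%, in osteoclasts for 29.1% and in macrophages for 30.5%. By the authors' deposited calls, 21 of the 49 genes were higher in dendritic cells than in both other cell types, against 16.6% of all genes, and 8 were lower there than in both, against 11.3%. Among genes with a mean of at least 500 in 1 of the cell types these shares were 17.7% and 16.0%. With the sums made equal these counts were 15 and 10. The shares of all genes were not counted on that scale, so these counts have no background beside them. The calls between osteoclasts and dendritic cells were then lost for Actb, Vasp, Tpm4, Gsn, Lcp1, Coro1a, Vcl and Asap1, and Tln1 and Actn4 joined the genes lowest in dendritic cells. Osteoclasts were higher than both others in 3 genes (Tpm1, Actn4 and Bcar1) and lower in 2 (Svil and Lsp1), against 7.3% and 6.16% of all genes. Macrophages were higher than both in 3 (Arpc3, Wipf1 and Lpxn) and lower in 10, against 6.99% and 6.1%. In 10 genes no comparison was called: Cfl1, Actr2, Actr3, Arpc1b, Arpc2, Fmnl1, Tpm3, Flna, Fermt3 and Ilk. The share of all genes with no call was not counted. Each pair of comparisons shares a cell type, so these counts are not independent of each other.

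**Figure D1:**
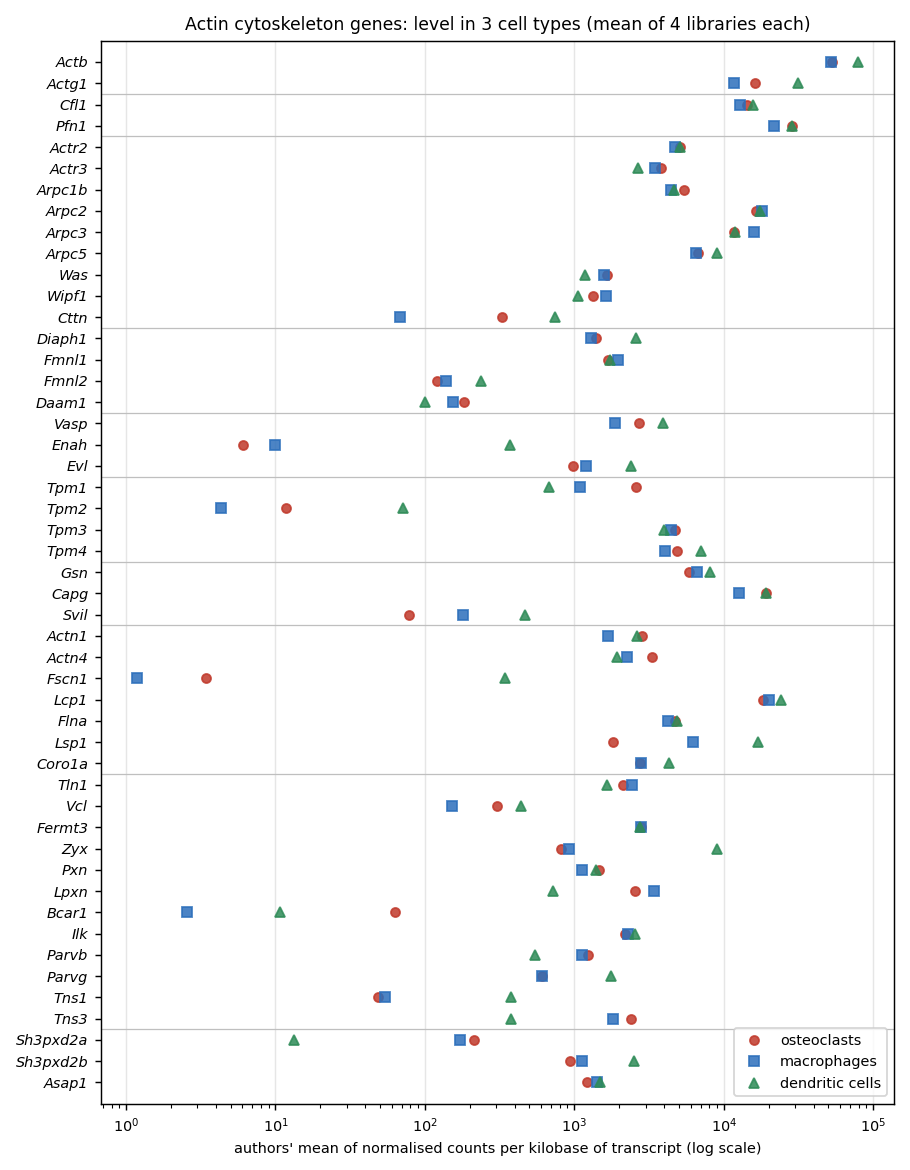
Each row is a gene, grouped by role between grey lines, and the x axis gives the authors' mean of normalised counts per kilobase of transcript on a log scale in osteoclasts (circles), macrophages (squares) and dendritic cells (triangles). Actb lies at the right in all 3 cell types, and Fscn1 ranges from 1.18 in macrophages to 343 in dendritic cells.

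Osteoclasts and macrophages both had M-CSF, and osteoclasts had RANKL as well. Cells with a single nucleus were detached from the osteoclast cultures, and RANKL and this step cannot be told apart here. Osteoclasts had more RNA for Bcar1 (p130Cas, a docking protein downstream of integrins and Src), Cttn (cortactin, which stabilises Arp2/3 branches), Tpm1 and Tpm2 (tropomyosins, which coat unbranched filaments) and Vcl (vinculin, which links talin to actin). They had less RNA for Lsp1, a leukocyte actin-binding protein, and Svil, supervillin, which binds myosin II at podosomes. Of the 49 genes, the authors' deposited table called 17, of which 12 were higher and 5 lower in osteoclasts, against 29.3% of all 17822 genes tested (14.5% higher and 14.7% lower). The median log2 fold change was 0.06 over the 49 genes and -0.03 over all genes tested, and 7 of the 49 differed at least 2-fold, where 12.1% of all genes did. Among genes with a mean of at least 500 in 1 of the cell types, 39.4% were called.

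Osteoclasts against dendritic cells differed in more of these genes. Dendritic cells had far more Fscn1 (fascin, the bundler of dendrites), Enah (Mena, an elongation factor), Zyx (zyxin) and Lsp1, and osteoclasts had more Sh3pxd2a (Tks5, a podosome scaffold), Tns3 (tensin 3), Bcar1 and Tpm1. The authors' deposited table called 33 of the 49, 10 higher and 23 lower in osteoclasts, against 36.9% of 21217 genes tested (16.8% higher and 20.1% lower in osteoclasts) and 51.6% of those with a mean of at least 500. Their median log2 fold change was -0.13, against -0.05 over all genes tested, and 17 differed at least 2-fold, where 20.5% of all genes did. With the summed means of the cell types made equal, log2 fold changes of osteoclasts over dendritic cells rise by 0.194, and 12 of the 49 were then higher and 15 lower in osteoclasts. Over all genes that scaling turns the share of calls that are higher in osteoclasts from 45.4% to 61.4%.

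Dendritic cells against macrophages compared growth with GM-CSF and with M-CSF. The dendritic cells came from non-adherent marrow cells, and expansion in M-CSF is stated for macrophages but not for them. These differences cannot be told apart from the growth factor. Fscn1, Enah, Tpm2, Cttn, Zyx and Tns1 were higher in dendritic cells, and Sh3pxd2a, Tns3, Lpxn and Parvb were lower there. Here the authors' deposited table called 36 of the 49, 26 higher and 10 lower in dendritic cells, against 36.7% of 20730 genes tested (20.3% higher and 16.4% lower) and 52.0% of those with a mean of at least 500. The median log2 fold change was 0.33 over the 49 genes and 0.05 over all genes tested, and 19 differed at least 2-fold, where 20.2% of all genes did. Equal sums lower these log2 fold changes by 0.148, and 20 of the 49 were then higher and 11 lower in dendritic cells. Over all genes the share of calls that are higher in dendritic cells then goes from 55.4% to 42.8%.

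**Figure D2:**
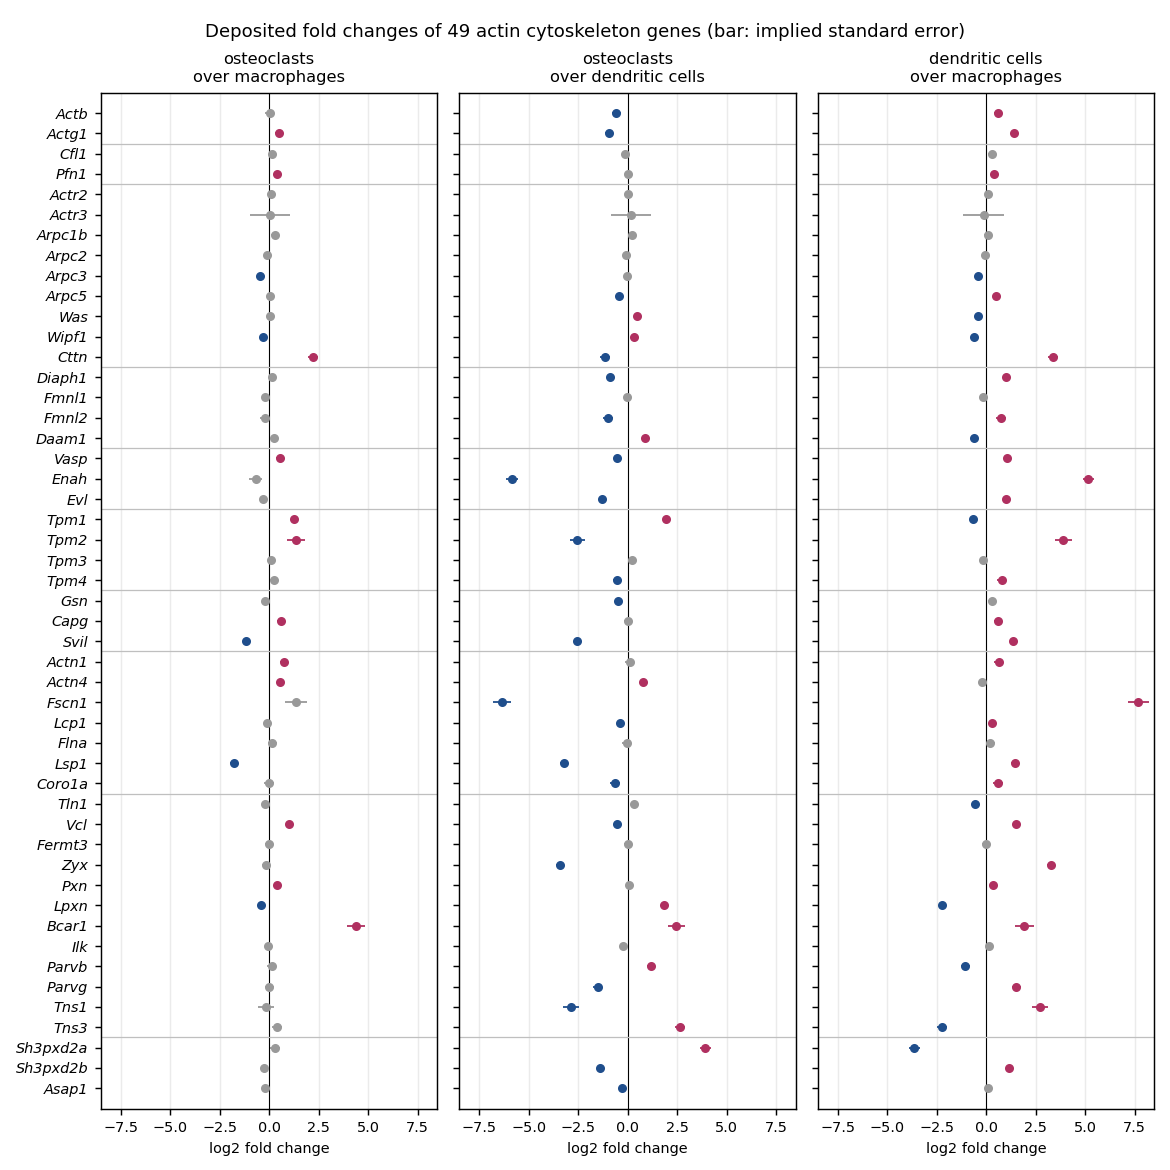
Rows are the 49 genes in the order of the plot of levels, and the x axis of each panel is the authors' log2 fold change with the implied standard error as a bar. Red points were called higher and blue points lower in the first-named cell type, and grey points were not called; Bcar1 is the farthest right for osteoclasts over macrophages and Fscn1 for dendritic cells over macrophages.

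The actins themselves were highest in dendritic cells. Actb, beta-actin, was the most abundant of the 49 per kilobase, with authors' means of 53320 (osteoclasts), 52360 (macrophages) and 79700 (dendritic cells). Actg1, gamma-actin, had authors' means per kilobase of 16210, 11640 and 31680 in the same order. For Actg1 the authors' deposited table gives a log2 fold change of 1.43 ± 0.19 for dendritic cells over macrophages and 0.47 ± 0.19 for osteoclasts over macrophages, the latter at an adjusted p of 0.0498. Actb was higher in dendritic cells by 0.60 ± 0.21 over macrophages and lower in osteoclasts by -0.57 ± 0.21 against dendritic cells on the log2 scale in the authors' deposited table. Both Actb calls are lost when sums are made equal, and its osteoclast-to-macrophage value of 0.03 ± 0.21 was not called and turns to -0.0032 with upper quartiles made equal. The ratio of Actb to Actg1 per kilobase was 4.5 in macrophages, 3.29 in osteoclasts and 2.52 in dendritic cells. Much of the Actg1 transcript is shared: 56.7% of its 50-base words, the length of a read, also occur in other genes, against 14.2% for Actb, so counts of Actg1 could be split with its copies.

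Among genes that supply and branch filaments, differences stayed under 2-fold apart from cortactin. The 2 monomer-binding genes were Cfl1 (cofilin, which severs filaments) and Pfn1 (profilin, which loads monomers); Cfl1 was not called, and Pfn1 was 1.31-fold higher in osteoclasts and 1.31-fold higher in dendritic cells than in macrophages in the authors' deposited table. Neither Pfn1 call holds with upper quartiles made equal (log2 fold changes of 0.36 and 0.31). The 6 subunits of the Arp2/3 complex lay between 2671 (Actr3, dendritic cells) and 17970 (Arpc2, macrophages) per kilobase, and Arpc2 was the highest and Actr3 the lowest of the 6 in each cell type. Arpc3 was highest in macrophages, with log2 fold changes of -0.45 ± 0.13 in osteoclasts and -0.42 ± 0.13 in dendritic cells against macrophages in the authors' deposited table. Arpc5 was highest in dendritic cells, 1.39-fold over macrophages and 1.34-fold over osteoclasts in the authors' deposited table. The remaining 4 subunits were not called in any comparison. For Actr3 the implied standard error was wide, at -0.13 ± 1.02 for dendritic cells over macrophages in the authors' deposited table, and 49.8% of its 50-base words occur in another gene.

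Was and its partner Wipf1, which binds and stabilises Was, were lower in dendritic cells than in either of the others. Their authors' means were 3497 and 6265 (osteoclasts), 3344 and 7709.6 (macrophages) and 2488 and 5016 (dendritic cells). The differences were under 2-fold, with log2 fold changes for dendritic cells over macrophages of -0.43 ± 0.11 for Was and -0.62 ± 0.11 for Wipf1 in the authors' deposited table. Cortactin was highest in dendritic cells and lowest in macrophages. Cttn had normalised reads of 1134, 1150, 1336 and 700.3 in the osteoclast libraries a to d and of 141, 212, 215 and 330.2 in macrophage libraries a to d. For a mean between 1000 and 2000, as in the osteoclasts here, reads were accepted only where every library lay within 0.5 to 1.5 times the mean. That range keeps the 4 libraries close together, so whether such a group overlaps another is not read from it. Its authors' mean was 2436 in dendritic cells, where single libraries could not be recovered. The authors' deposited table gives log2 fold changes of 2.23 ± 0.25 for osteoclasts over macrophages, -1.16 ± 0.25 for osteoclasts over dendritic cells and 3.39 ± 0.25 for dendritic cells over macrophages.

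Of the formins, which elongate unbranched filaments, Diaph1 and Fmnl1 were the abundant pair and differed in their order. Diaph1 (mDia1) had authors' means of 7961 (osteoclasts), 7281 (macrophages) and 14654 (dendritic cells), and was 2.01-fold higher in dendritic cells than in macrophages in the authors' deposited table. Fmnl1 was not called, with authors' means of 6417, 7438 and 6636. Per kilobase Diaph1 made up 55.4% of the sum of the 4 formins in dendritic cells, 41.4% in osteoclasts and 36.4% in macrophages, and Fmnl1 37.4%, 49.7% and 55.3%. Daam1 went the other way, with normalised reads of 1018, 1173, 1137 and 1001 in the 4 osteoclast libraries, 865, 747, 1108 and 899 in the macrophage libraries and 523, 630.1, 625 and 561 in the dendritic cell libraries. Every dendritic cell library lay below every macrophage library for Daam1, and the log2 fold change was 0.88 ± 0.14 for osteoclasts over dendritic cells in the authors' deposited table. Fmnl2 had 706, 1463, 1854 and 1161 normalised reads in dendritic cells, chosen by the range, against 749.6, 708, 844 and 741 in macrophages and 537, 721, 800 and 556 in osteoclasts. Dendritic library a, the lowest of its 4, lay below every macrophage library and inside the osteoclast range for Fmnl2, although the authors' deposited table calls it higher in dendritic cells than in macrophages (log2 fold change 0.76 ± 0.25) and lower in osteoclasts than in dendritic cells (-0.97 ± 0.25). A two-sided exact permutation test of those 4 libraries against 4 gave p = 0.143 for dendritic cells against macrophages and 0.0857 for osteoclasts against dendritic cells, where 0.0286 is the smallest p that 4 against 4 can give.

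All 3 Ena/VASP genes, whose products keep filament ends growing at adhesions and filopodia, were higher in dendritic cells than in both others. Enah had the widest span of these: 11.9, 14.9, 26.0 and 16.1 normalised reads in the osteoclast libraries, 25.9, 27.3, 31.2 and 28.5 in the macrophage libraries and 693, 1127, 983 and 1448 in the dendritic cell libraries. The dendritic cell values were chosen by the range, and the log2 fold change over macrophages was 5.16 ± 0.27 in the authors' deposited table. Between osteoclasts and macrophages Enah was not called (-0.69 ± 0.31, adjusted p = 0.0847 in the authors' deposited table). Even so, Enah made up 5.6% of the family per kilobase in dendritic cells, against 0.323% in macrophages and 0.165% in osteoclasts, and Vasp remained the main member with 58.6%, 60.8% and 73.3%. Vasp had authors' means of 5969 (osteoclasts), 4137 (macrophages) and 8669 (dendritic cells), with all 3 comparisons called in the authors' deposited table. Evl had authors' means of 2128, 2603 and 5209.6, and osteoclasts and macrophages were not called apart.

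The tropomyosins split by cell type. Tpm1 was highest in osteoclasts, with authors' means of 4929.6 (osteoclasts), 2063 (macrophages) and 1278 (dendritic cells), where the libraries held 1156, 1485, 1146 and 1325 normalised reads. The log2 fold changes of Tpm1 were 1.25 ± 0.15 over macrophages and 1.94 ± 0.15 over dendritic cells in the authors' deposited table. Its share of the 4 tropomyosins per kilobase was 21.4% (osteoclasts), 11.3% (macrophages) and 5.71% (dendritic cells). Tpm4 was highest in dendritic cells, with authors' means of 10309, 8659 and 14987 and shares of 39.9%, 42.4% and 59.7%. Tpm3 was not called, and 62.4% of its 50-base words occur in other genes, against 12.1% for Tpm4. Tpm2 was rare everywhere, with 20.9, 22.9, 36.0 and 18.1 normalised reads in the osteoclast libraries, 2.88, 15.6, 4.87 and 12.8 in the macrophage libraries and 242, 129, 101 and 128 in the dendritic cell libraries. The 3 cell types did not overlap in Tpm2, and its log2 fold change was 3.90 ± 0.42 for dendritic cells over macrophages in the authors' deposited table. Stromal cells also carry tropomyosins: their marker Dcn had 275, 395, 322 and 137 normalised reads in osteoclast libraries a to d and between 0 and 1.97 in macrophage libraries, while 9 of the 11 stromal markers had an authors' mean under 10 in osteoclasts. Osteoclast library d was the lowest for Dcn, and for 7 of the 11 listed genes recovered in osteoclasts, Tpm2 among them. Of the 7 genes recovered there with no range it was the lowest in 3. How often it was the lowest over all genes was not counted, so this is not read as a trait of the listed genes. Per kilobase Tpm2 had 11.7 in osteoclasts and 71.6 in dendritic cells, where Dcn had 160.7 and 0.87. The part of stromal RNA in the tropomyosin values was not tested.

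In the gelsolin family, which caps and severs filaments, Gsn and Svil had the same order of means and Capg another. Gsn (gelsolin) had authors' means of 15202 (osteoclasts), 17365 (macrophages) and 21226 (dendritic cells), and was called only for osteoclasts against dendritic cells, at -0.48 ± 0.17 on the log2 scale in the authors' deposited table. Capg, which caps filaments without severing them, was 1.52-fold higher in osteoclasts and 1.51-fold higher in dendritic cells than in macrophages in the authors' deposited table. Svil fell in the order dendritic cells, macrophages, osteoclasts. Its normalised reads were 576, 644, 579 and 691 in osteoclasts and 1603, 1422, 1293 and 1387 in macrophages (chosen by the range), and its authors' mean was 3686 in dendritic cells. The log2 fold changes of Svil were -1.19 ± 0.12 for osteoclasts over macrophages and -2.56 ± 0.12 for osteoclasts over dendritic cells in the authors' deposited table.

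Among filament cross-linkers, both alpha-actinins were higher in osteoclasts than in macrophages, and Fscn1, Lsp1, Coro1a and Lcp1 were higher in dendritic cells than in both other cell types. Actn4 was higher in osteoclasts than in macrophages (0.55 ± 0.14) and dendritic cells (0.77 ± 0.14) on the log2 scale in the authors' deposited table. Actn1 was lowest in macrophages, with authors' means of 10662 (osteoclasts), 6313 (macrophages) and 9860.1 (dendritic cells). Actn4 exceeded Actn1 per kilobase 1.16-fold in osteoclasts and 1.34-fold in macrophages, and the ratio was 0.734 in dendritic cells. Lcp1 (L-plastin), the podosome core bundler, was the most abundant cross-linker per kilobase, at 18450, 20110 and 24370. It was 1.21-fold higher in dendritic cells than in macrophages in the authors' deposited table, a call that is lost with sums or upper quartiles made equal.

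Fascin RNA was scarce outside dendritic cells. Fscn1 had 12.9, 12.9, 8.01 and 3.02 normalised reads in the osteoclast libraries, 2.88, 1.95, 3.90 and 3.93 in the macrophage libraries and an authors' mean of 917 in dendritic cells. The dendritic mean fits 2 sets of whole reads, whose lowest library holds 388 or 92.3 normalised reads, and both lie above every osteoclast and macrophage library. Its log2 fold change over macrophages was 7.69 ± 0.52 in the authors' deposited table, the largest of the 49 genes in any of the 3 comparisons. Lsp1 fell from 31212 in dendritic cells to 11374 in macrophages and 3301 in osteoclasts (authors' means), at -1.77 ± 0.18 on the log2 scale for osteoclasts over macrophages in the authors' deposited table. Coro1a, coronin 1A of leukocytes, was called higher in dendritic cells than in macrophages at 0.61 ± 0.25 in the authors' deposited table, and lost that call with sums made equal. Flna, filamin A, was not called, with authors' means of 40140.4, 35783 and 41396. Neutrophils also carry Lsp1, Coro1a and Lcp1, and the sum of the neutrophil markers given above was also highest in the dendritic cell cultures. The part of neutrophil RNA in these values was not tested.

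Of the 12 genes that join integrins to actin, 6 were called higher and 4 lower in dendritic cells than in macrophages. Zyx, a LIM protein that recruits VASP to strained filaments, had authors' means of 2614 (osteoclasts), 2919 (macrophages) and 28634 (dendritic cells). Its log2 fold change was 3.26 ± 0.21 for dendritic cells over macrophages in the authors' deposited table, and osteoclasts and macrophages were not called apart (-0.16 ± 0.21). Bcar1 was highest in osteoclasts: 237, 224, 204 and 122 normalised reads in libraries a to d, against 11.5, 4.87, 12.7 and 2.95 in macrophages and 25.4, 9.16, 55.1 and 44.1 in dendritic cells. Each osteoclast library lay above every other library, and the log2 fold changes were 4.38 ± 0.47 over macrophages and 2.46 ± 0.43 over dendritic cells in the authors' deposited table. Macrophages and dendritic cells overlapped in Bcar1, and that difference, called in the authors' deposited table at 1.93 ± 0.48, gave p = 0.0857 in the exact permutation test. Vcl had 1591, 1585, 1821 and 1422 normalised reads in osteoclasts and 532, 869.7, 924 and 869 in macrophages, the osteoclast values chosen by the range, and an authors' mean of 2324 in dendritic cells. Without macrophage library a, the lowest, the macrophage mean of Vcl was 887 in place of 799.

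Talin, kindlin and the kinase-like adaptor Ilk, which act at the integrin tail, showed small differences. Tln1 was lower in dendritic cells than in macrophages (-0.54 ± 0.17 in the authors' deposited table) and not called otherwise. Fermt3 (kindlin-3) had authors' means of 7215, 7265 and 7131, and Ilk of 3900.1, 4109.8 and 4593, in osteoclasts, macrophages and dendritic cells. For Fermt3, osteoclasts over macrophages came to -0.01 ± 0.19 on the log2 scale in the authors' deposited table.

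Within 3 pairs of close relatives, 1 gene was higher in dendritic cells than in both M-CSF-grown cell types and the other was lower there than in both. These pairs were picked after their values were seen. The podosome scaffolds Sh3pxd2a (Tks5) and Sh3pxd2b (Tks4), Src substrates that bring proteases and actin regulators to the membrane, gave the widest contrast. Sh3pxd2a had 80.4, 135, 99.0 and 245 normalised reads in the dendritic cell libraries and 1995, 1684, 1964 and 1549 in the macrophage libraries, with an authors' mean of 2226 in osteoclasts. The macrophage values were chosen by the range, and the log2 fold changes were -3.62 ± 0.27 for dendritic cells over macrophages and 3.92 ± 0.27 for osteoclasts over dendritic cells in the authors' deposited table. Sh3pxd2b had authors' means of 6894 (osteoclasts), 8322 (macrophages) and 18475 (dendritic cells), a log2 fold change of 1.15 ± 0.14 for dendritic cells over macrophages in the authors' deposited table. Per kilobase the ratio of Sh3pxd2b to Sh3pxd2a was 4.37 (osteoclasts), 6.53 (macrophages) and 186 (dendritic cells). Asap1, an Arf GTPase-activating protein of podosomes, differed by at most 1.23-fold (dendritic cells over osteoclasts) in the authors' deposited table.

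Tensins bind integrin tails and actin, and the same opposition appeared there. Tns3 had authors' means of 18037 (osteoclasts), 13545 (macrophages) and 2804 (dendritic cells), and its log2 fold change was 2.65 ± 0.25 for osteoclasts over dendritic cells in the authors' deposited table. Tns1 had 323, 401, 498 and 703 normalised reads in the osteoclast libraries, 368, 1001, 165 and 602 in the macrophage libraries and an authors' mean of 3732 in dendritic cells. Its log2 fold change was 2.70 ± 0.41 for dendritic cells over macrophages in the authors' deposited table. The macrophage libraries spread widely, 534 ± 359 (SD, n = 4), and the osteoclast-to-macrophage value of -0.14 ± 0.41 was not called and changed sign in a limma fit on recovered reads (0.08). The ratio of Tns3 to Tns1 per kilobase was 49.6 (osteoclasts), 33.6 (macrophages) and 0.995 (dendritic cells).

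The parvins Parvb and Parvg, which bind Ilk and actin, lie in the same orientation on chromosome 15, 84232043 to 84315688 and chromosome 15, 84324026 to 84342978 (GRCm38), with 8337 bases between them. Parvb had authors' means of 4653 (osteoclasts), 4269.6 (macrophages) and 2059 (dendritic cells), and Parvg of 1586, 1581 and 4587. For dendritic cells over macrophages the log2 fold changes were -1.04 ± 0.21 for Parvb and 1.52 ± 0.23 for Parvg in the authors' deposited table. The 4 libraries of Parvg spanned 2030, 1799, 1414 and 1101 normalised reads in osteoclasts and 1011, 1670, 2057 and 1584 in macrophages, both chosen by the range. The ratio of Parvb to Parvg per kilobase was 2.03, 1.87 and 0.311 in osteoclasts, macrophages and dendritic cells. In the paxillin pair, Lpxn was lower in dendritic cells than in both others, while Pxn was called against macrophages but not against osteoclasts. Lpxn (leupaxin, the leukocyte paxillin relative) had authors' means of 4299, 5722 and 1207, and Pxn of 5406, 4159 and 5216. For dendritic cells over macrophages the log2 fold changes were -2.24 ± 0.13 for Lpxn and 0.33 ± 0.11 for Pxn in the authors' deposited table, the latter lost when sums are made equal. Lpxn exceeded Pxn per kilobase 1.75-fold in osteoclasts and 3.03-fold in macrophages, and the ratio was 0.509 in dendritic cells.

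**Figure D3:**
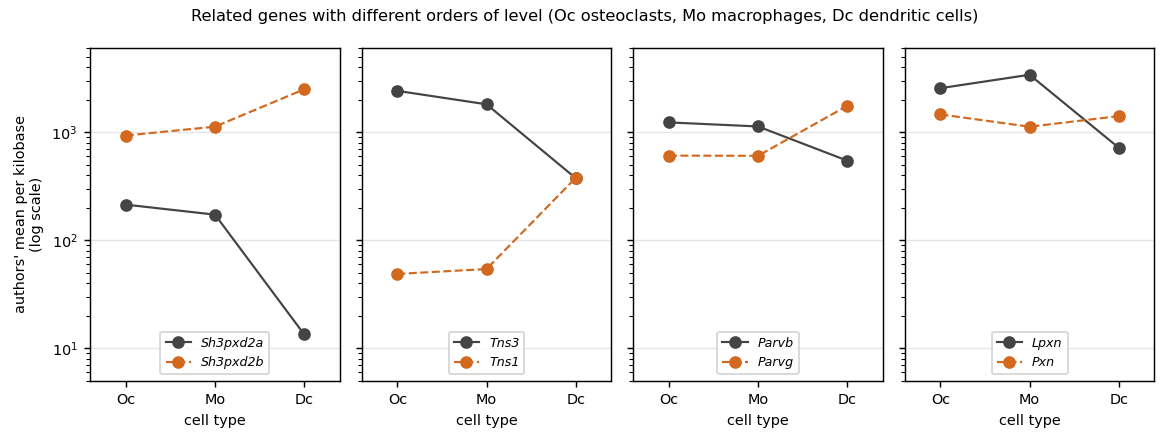
Each panel shows 2 related genes, with the authors' mean per kilobase of transcript on a shared log axis in osteoclasts (Oc), macrophages (Mo) and dendritic cells (Dc); lines join the 3 means of a gene and carry no error. Tns3 and Tns1 meet in dendritic cells at a ratio of 0.995, and the order of Parvb and Parvg changes between macrophages (1.87) and dendritic cells (0.311).

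Reads of single libraries were recovered for 14 of the 49 genes in at least 1 cell type, giving 22 differences of 4 libraries against 4. The 11 with reads chosen by the range in either cell type are left out here. In 6 of the other 11 the cell types did not overlap: Bcar1 for osteoclasts against each of the others, Tpm2 in all 3 comparisons, and Daam1 for dendritic cells against macrophages. Each had a two-sided exact permutation p of 0.0286, the smallest possible, which came to 0.0524 after adjustment over the 11 and so missed 0.05. Over all tested genes with means up to 1000, 24.8% did not overlap for osteoclasts against macrophages, 31.2% for osteoclasts against dendritic cells and 27.3% for dendritic cells against macrophages. Osteoclast library d was the lowest of the 4 in 7 of the 11 genes recovered there and the highest in 2 (Svil and Tns1). It was the lowest in 3 (Tpm2, Fscn1 and Bcar1) of the 7 genes recovered with no range. The share over all recovered genes was not counted. Without library d the osteoclast mean was 222 in place of 197 for Bcar1, 1207 in place of 1080.0 for Cttn and 407 in place of 481 for Tns1. In the same library Pf4 stood at 1231 normalised reads, against 286 to 398 in the others, and H2-Aa at 850.4, against 282 to 376. Without library d the osteoclast mean of Pf4 was 344 in place of 566. Over the 14 genes and each left-out library, log2 ratios of means moved by at most 0.50, for Tns1 between macrophages and either other cell type. The osteoclast-to-macrophage ratio of Bcar1 ranged from 4.35 to 4.93 on the log2 scale as each library was left out.

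**Figure D4:**
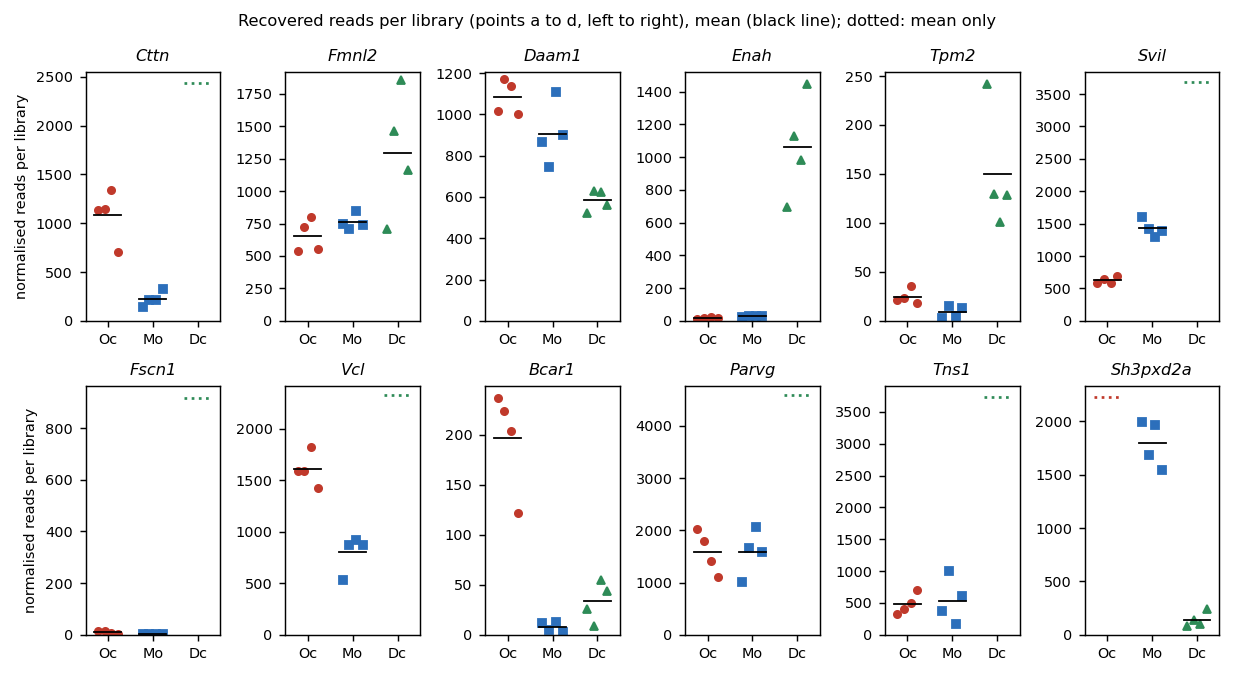
Each panel is a gene whose reads were recovered in at least 2 cell types, with normalised reads per library on a linear axis from 0; points are libraries a to d from left to right, black lines their mean, all within 0.5 to 1.5 times the mean by construction where the mean exceeds 1000, and dotted lines the authors' mean where no library could be recovered. For Bcar1 the 4 osteoclast libraries run from 122 to 237, above all macrophage and dendritic cell libraries.

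Promoter letters were searched in 41 of the 49 genes, those with a RefSeq window, for the CArG box of serum response factor, a regulator of actin genes, and for 2 other motifs on both strands. Windows ran from 250 bases before to 50 bases after the start. The CArG box occurred in the windows of 1.81% of 27025 genes and of 2 of the 41 (4.88%), Actg1 and Vcl. TGANTCA, a pattern wider than the AP-1 motif, which has G or C at the N, occurred in 8.97% of all genes. It occurred in 2 of the 41, Zyx and Actn4, and only the match in Zyx has G or C there. The share of all genes with the narrower motif was not counted. TTCNNNGAA, the STAT motif, occurred in 9.55% of all genes and in none of the 41. The 4 windows with a match are shown upstream of their start, 5′ to 3′ on the strand of the gene (RefSeq, GRCm38.p6), with the match in capitals, because they belong to genes called in at least 2 comparisons. In Actg1 the match CCATATATGG begins 90 bases before the start, and in Vcl the match CCTTATAAGG begins 227 bases before. In Zyx the match TGAGTCA begins 121 bases before, and in Actn4 the match TGAATCA begins 169 bases before.
Actg1 (chr11:120348496-120348745, minus strand): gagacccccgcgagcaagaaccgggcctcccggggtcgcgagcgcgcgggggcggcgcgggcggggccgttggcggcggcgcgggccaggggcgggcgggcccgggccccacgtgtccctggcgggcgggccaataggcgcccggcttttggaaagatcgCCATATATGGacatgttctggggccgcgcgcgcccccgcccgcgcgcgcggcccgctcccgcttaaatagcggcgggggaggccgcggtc
Vcl (chr14:20929148-20929397, plus strand): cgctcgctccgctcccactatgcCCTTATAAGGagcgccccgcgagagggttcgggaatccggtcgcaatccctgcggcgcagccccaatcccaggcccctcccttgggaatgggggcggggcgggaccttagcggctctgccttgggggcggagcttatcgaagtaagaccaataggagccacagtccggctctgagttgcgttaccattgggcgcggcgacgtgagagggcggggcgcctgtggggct
Zyx (chr6:42349578-42349827, plus strand): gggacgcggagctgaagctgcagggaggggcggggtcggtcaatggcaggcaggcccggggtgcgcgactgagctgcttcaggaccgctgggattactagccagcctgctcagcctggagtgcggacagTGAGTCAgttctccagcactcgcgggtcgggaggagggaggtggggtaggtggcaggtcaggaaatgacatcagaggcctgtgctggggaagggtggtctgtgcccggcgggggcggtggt
Actn4 (chr7:28962333-28962582, minus strand): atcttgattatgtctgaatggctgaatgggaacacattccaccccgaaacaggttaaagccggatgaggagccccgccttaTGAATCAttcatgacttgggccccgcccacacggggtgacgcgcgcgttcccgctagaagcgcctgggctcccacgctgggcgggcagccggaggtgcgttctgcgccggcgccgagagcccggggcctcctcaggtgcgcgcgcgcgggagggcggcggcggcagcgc
These are matches of letters in a window, and no binding was measured. Actg1 and Vcl had the same order of means, highest in dendritic cells and lowest in macrophages, and Zyx and Actn4 had different orders. The order of Actg1 and Vcl was also that of Arpc5, Vasp, Tpm2, Tpm4, Fscn1 and Parvg, whose windows held no CArG box. Srf itself had authors' means of 1127 (osteoclasts), 985 (macrophages) and 1299 (dendritic cells), and its part in these genes was not tested.

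Beyond the 49 genes, 128 further actin genes were read from the same table. Of those tested, 50 of 118 (42.4%) were called for osteoclasts against macrophages, 21 higher and 29 lower in osteoclasts, and their median log2 fold change in the authors' deposited table was -0.04. For osteoclasts against dendritic cells 68 of 123 (55.3%) were called, 26 higher and 42 lower (median -0.20), and for dendritic cells against macrophages 69 of 123 (56.1%), 42 higher and 27 lower (median 0.07), in the authors' deposited table. These shares lie above those of all genes tested (29.3%, 36.9% and 36.7%) and near those of genes with a mean of at least 500 (39.4%, 51.6% and 52.0%). No such floor was put on the further actin genes, so the latter sets are unlike. Scin (adseverin, a gelsolin relative) had the smallest p among those higher in osteoclasts than in macrophages, with authors' means of 1089.6 and 5.12 and 7.23 ± 0.51 on the log2 scale in the authors' deposited table. Lims2 (an Ilk partner) followed at 4.38 ± 0.31, and among those lower in osteoclasts was Ssh2 (a cofilin phosphatase, -2.12 ± 0.18), again in the authors' deposited table. For dendritic cells over macrophages the smallest p values belonged to Flnc (filamin C, 7.61 ± 0.41) and Tln2 (talin 2, 4.64 ± 0.29) among higher genes and to Ssh2 (-2.22 ± 0.18) and Wasf2 (a WAVE protein, -0.76 ± 0.08) among lower ones, in the authors' deposited table. Against dendritic cells, osteoclasts were higher in the formins Fmn1 (2.32 ± 0.23) and Fhod3 (3.90 ± 0.39) and lower in the tensin Tns4 (-6.05 ± 0.32) in the authors' deposited table. The relatives Flnc, Tln2 and Tns4 were highest in dendritic cells, as Tns1 was, while the main filamin Flna was not called.

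Among the role groups of this wider list, the other actins and thymosins had 4 of 5 tested genes higher in dendritic cells than in macrophages and none lower, with Actg2 at 7.40 ± 0.55 in the authors' deposited table. Tmsb4x (thymosin beta 4, which sequesters actin monomers) had authors' means of 57227 (osteoclasts), 91662 (macrophages) and 120493 (dendritic cells), with all 3 comparisons called in the authors' deposited table. Of the other formins, 4 of 8 were lower in dendritic cells than in macrophages and none higher. Over all genes tested in that comparison 20.3% were higher and 16.4% lower, and groups this small are given as counts only. Capping protein and tropomodulins had 0 of 10 called by the authors' DESeq2 for osteoclasts against macrophages and 8 of 10 for osteoclasts against dendritic cells, 1 higher and 7 lower. Of those 10, only Capzb had an unadjusted p under 0.05 for osteoclasts against macrophages. Pstpip1, a Was-binding protein, was higher in osteoclasts than in macrophages (1.04 ± 0.14) and dendritic cells (0.99 ± 0.14) in the authors' deposited table.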

How the data were processed

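RNA was sequenced in 12 libraries, 4 of each cell type, read as single 50-base reads. The library kit kept strand, per the labels' protocols. The submitters' processing notes name DESeq2 2.13, Cufflinks 2.1.1, TopHat2, Bowtie2 and bcl2fastq, and the build GRCm38. What each did, the annotation used and whether counting used strand are not stated there, so reads of overlapping antisense genes cannot be told apart. The authors' deposited table holds, per the file headers, a mean per cell type, a log2 fold change (sample 2 over sample 1), and the p-value with its adjusted form for 46072 genes. The means act as a signal of normalised counts that the authors averaged within a cell type, as the numbers themselves show. The deposited log2 fold changes of low genes lie closer to 0 than the ratio of means.

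The deposited p-value was taken as a two-sided Wald test, and the standard error is the fold change over the normal quantile of that p. The authors' calls at adjusted p under 0.05 were used, with no test over the 49 genes as a list. The members and lists were chosen with earlier results of these data known. Named per comparison are the 12 called members with the largest fold changes, the 5 most abundant per kilobase, the extremes of role groups of 4 or more, members with recovered reads, and further actin genes with the smallest p. Other members are named to complete their role group. A further actin gene that this rule names is not reported here.

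Because a mean is a sum of whole reads, each divided by 4 size factors, reads per library were recovered for means up to 1000, and for listed genes up to 2000 where 1 set of libraries within 0.5 to 1.5 times the mean was found. In simulated data a small part of the reads chosen by this range were wrong. Those simulations had narrower spreads between libraries than some recovered members (Tns1 in macrophages, 534 ± 359), so the part here could be larger. The range also bounds the spread. Overlap and permutation results are therefore given for the others alone, with 1 exception named (Fmnl2). Recovery gave 100.0% of 17313 genes up to 1000 in osteoclasts, 99.96% of 17969 in macrophages and 99.98% of 18272 in dendritic cells, within a relative residual of 5e-15. Libraries are lettered a to d by size factor within a cell type and cannot be tied to replicate numbers or across cell types. They were tested with an exact permutation test and with limma 3.58.1 (pseudocount 1). Recovery, limma and rescaling were tested on simulated data. Lengths and positions are from GENCODE M21, promoters from RefSeq. Alternatives were adjusted p under 0.01, no filter, a minimum of 1 CPM, equal sums, equal upper quartiles, at least 2-fold, ratios of means, and each recovered library left out.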

Additional observations from a re-analysis of the deposited data

Results flagged for a closer look

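In 38 groups of 4 libraries, the highest and lowest library were compared with the rest of their group by Dixon's ratio. Chance passes this ratio in about 1 in 20 groups. The groups were those recovered for the 49 genes and for H2-Aa, H2-Ab1, Pf4 and Ighm, markers of other cell types chosen by name. H2-Ab1 did not pass, and the other markers were not screened. Vcl in macrophages had 1 library far below the others, at 532 normalised reads against 869 to 924. The authors' osteoclast mean of Vcl lies above all 4 macrophage libraries with or without it. Osteoclast library d stood far above the other osteoclast libraries in 3 of the 4 markers screened, and was the lowest for the stromal marker Dcn. It held 850.4 normalised reads of H2-Aa (class II antigen presentation), where the others held 282 to 376. It held 1231 of Pf4 (a platelet chemokine that macrophages also express), where the others held 286 to 398, and 109 of Ighm (an immunoglobulin heavy chain), where the others held 35.8 to 46.1. The same library was the lowest of its 4 in Bcar1 and Tpm2, and in Cttn, Vcl and Parvg among reads chosen by the range, and whether these move together for a shared reason was not tested.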

How the results depend on the processing

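No paired analysis was possible because the table has no column per library and recovered libraries carry no replicate number. Counting differences of at least 2-fold alone leaves 7 of the 17 member calls for osteoclasts against macrophages, 17 of 33 for osteoclasts against dendritic cells and 19 of 36 for dendritic cells against macrophages, and 22 of 50, 34 of 68 and 33 of 69 calls of the other actin genes. Every other setting kept the counts of calls within 1.5 times: for members 13 to 17, 27 to 33 and 31 to 36 in the 3 comparisons. Leaving out the 7 members that share at least 10% of their 50-base words with other genes, chosen after seeing the data, gave 16, 30 and 33 of 42. Signs under these settings were checked only for the members named by the rule above, not for all 49. Those that turned belonged to differences that were not called. With equal upper quartiles they were Actb (-0.0032) and Parvg (-0.0242) for osteoclasts over macrophages. With limma it was Tns1 (0.0774) for the same pair, and with equal sums Arpc2 (0.1138) for osteoclasts over dendritic cells. Of 248 values with 1 library left out, 244 changed by less than the implied standard error and 4 moved further. Dropping 1 of 4 libraries can move a mean only by a bounded part of its spread. Few values could therefore move further, and no conclusion on robustness is drawn from this count. The permutation test did not call 3 differences that the authors called (Fmnl2 in both dendritic comparisons, Bcar1 between dendritic cells and macrophages), where the Fmnl2 reads of dendritic cells were chosen by the range, with the cause not tested. Most members have means too high for recovery, so no spread between libraries is known for 35 of the 49, and leaving a library out could not be run for them or for the counts of calls.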
